A study of Petunia x hybrida with 12 samples.

Results

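Control roots of the petunia mutant *ram1-2* (*ram1*) and of the wild type line W115, given by the study as non-colonized, were compared gene by gene. A gene entered the comparison when its mean reached 10 counted reads in *ram1* control or in wild type control roots, which held for 22246 of the 32928 gene models of the study. Of these, 21190 reached that mean in *ram1* control roots, 20813 in wild type control roots and 19757 in both. Each genotype was represented by 3 control libraries, one per replicate plant, from roots taken at the harvest 15 days post inoculation of the whole experiment, which also holds 3 mycorrhizal libraries of each genotype. All plants shared a sand and soil mixture and a weekly nutrient solution low in phosphate. Only one mutant allele was sequenced, and the sources do not state its genetic background, so the mutation and the rest of the genome of the line cannot be told apart. The reads of both lines had been aligned to transcripts of *P. axillaris*, one of the parental species of garden petunia, so that a level that differs and a sequence that aligns less well cannot be told apart either.

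Arbuscular mycorrhiza (AM) is a symbiosis in which a soil fungus grows into the root and forms branched arbuscules inside cortex cells, where it hands over phosphate and receives lipids and sugars. *RAM1* encodes a GRAS protein, a plant-specific type of transcription factor, that is needed for arbuscules to develop and that is induced when the fungus enters the root. Strigolactones released by roots wake the fungus, and a set of common symbiosis genes carries its signal to the nucleus, so their state before contact sets the scene for the interaction. In roots without a fungus, the genes of the arbuscule itself are normally close to silent.

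*RAM1* (Peaxi162Scf00420g00650.1) was hardly read in either line. It had 4, 3 and 2 reads in *ram1* control roots and 1, 4 and 3 reads in wild type control roots, too few for a test. The groups overlapped, and the control libraries therefore do not show the mutation. In mycorrhizal roots of the same lines *RAM1* had 78, 61 and 92 reads in *ram1* and 1250, 1295 and 1684 in the wild type, so there the libraries follow their labels.

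The control libraries held 12255244 to 13391147 counted reads in *ram1* and 12015130 to 12906761 in the wild type. The first principal component of log2 CPM (counts scaled to a common library size) took 79.56% of the variance among the 6 libraries and separated the genotypes, and the second took 8.506% and set *ram1* control replicate 3 apart. Replicates differed by more than counting noise: chi-square values divided by their degrees of freedom were 15.68 to 45.95 in *ram1* and 15.78 to 21.57 in the wild type. In *ram1* control replicate 3, 1811 genes lay at least 2-fold away from the other replicates of its group, against 951 and 1266 in the other *ram1* libraries and 912 to 1192 in those of the wild type. Leaf and green shoot markers had summed levels of only 59.5, 61.7 and 78.4 CPM in *ram1* and 64, 83.2 and 70.7 CPM in the wild type, and 10 of the 54 gene models had no read in any control library. As the libraries come from whole roots, fewer cells of a type and less RNA per cell cannot be told apart.

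The lines differed widely in control roots. With edgeR's quasi-likelihood test and Benjamini-Hochberg adjustment, 8272 of the 22246 genes (37.2%) passed an adjusted p of 0.05, which is called a change here. Of them, 4246 genes (19.1%) were higher in *ram1* and 4026 (18.1%) were lower. At least 2-fold, 2435 genes (10.9%) were higher and 2061 (9.26%) lower, and at least 5-fold, 1110 (4.99%) were higher and 873 (3.92%) lower. The median log2 fold change of all genes was 0.02, a value that the scaling of the libraries holds near 0. The quartiles were -0.35 and 0.44, and both tails were long. The 3 *ram1* levels did not overlap with the 3 wild type levels in 8044 of the called genes, and in 10751 (48.3%) of all genes tested. The p values set each difference against the spread between replicate plants, which was estimated from all 12 libraries, the mycorrhizal ones included. With the 6 control libraries alone, 7115 genes passed instead of 8272.

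**Figure D1:**
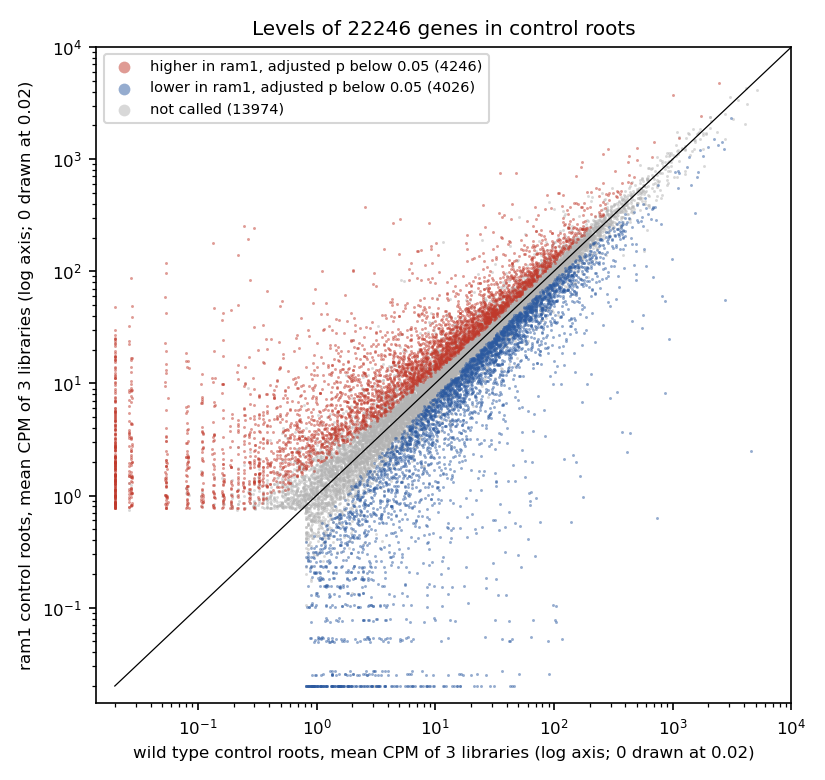
Mean level of each of the 22246 tested genes in *ram1* control roots (vertical axis, CPM, log axis) against wild type control roots (horizontal axis, CPM, log axis), with a mean of 0 drawn at 0.02. The 4246 genes higher in *ram1* and the 4026 lower genes reach as far as the lower edges, where 216 genes had no read in the 3 wild type libraries and 166 had none in the 3 *ram1* libraries.

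The clearest differences, taken as the genes with the smallest p among those with a description, a mean of at least 100 reads and no overlap between the lines, included genes hardly read in one of the lines and genes well read in both. Among the 12 such genes higher in *ram1* was a kinase described as BIK1 (Peaxi162Scf00016g03247.1), in Arabidopsis a cytoplasmic kinase of immune signalling. It had 42.2, 42.5 and 41.5 CPM in *ram1*, against 0.245, 0.0843 and 0.158 CPM in the wild type. The *ram1* values were nearly equal and all far above the wild type (log2 fold change 7.92 ± 0.23 SE, adjusted p = 6.87e-09). A fatty acyl-CoA reductase (Peaxi162Scf01079g00017.1), of the enzymes that make the fatty alcohols of suberin and waxes, had 287, 174 and 295 CPM in *ram1*, against 0.327, 0.253 and 0.158 CPM in the wild type. A pair of cytochrome P450 genes of subfamily 71B showed the same form. Peaxi162Scf00879g00018.1 had 190, 138 and 214 CPM in *ram1* and 0.164, 0.0843 and 0.158 CPM in the wild type. Peaxi162Scf00408g00016.1 had 251, 195 and 285 CPM in *ram1* and 0.491, 0.169 and 0.237 CPM in the wild type. Both were read at almost nothing in every wild type library and strongly in every *ram1* library. A small ubiquitin-like modifier 2 gene (SUMO2, Peaxi162Scf00100g01521.1), a peptide attached to other proteins, had 275, 293 and 292 reads in *ram1* and 0, 0 and 1 in the wild type, a ratio of 821 with a 95% counting interval of 147 to 32454.

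Not every clear difference was of this extreme kind. Protein disulfide isomerase-like 2-1 (Peaxi162Scf00071g00438.1), which helps secreted proteins to fold, had 111, 103 and 96.6 CPM in *ram1*, against 6.62, 5.65 and 5.85 CPM in the wild type. Both lines read it well, and it was 17.1-fold higher in *ram1* (adjusted p = 1.85e-08). The remaining genes of this group were an alpha/beta-hydrolase (Peaxi162Scf00064g00625.1, 638-fold higher), a diaminopimelate decarboxylase of lysine synthesis (Peaxi162Scf00016g00522.1, 345-fold), a MATE efflux transporter (Peaxi162Scf00205g00923.1, 64.9-fold), a UDP-glycosyltransferase (Peaxi162Scf00085g00191.1, 42.4-fold), a disease resistance protein (Peaxi162Scf01385g00030.1, 19.0-fold) and a RING/U-box protein (Peaxi162Scf00111g01325.1, 11.1-fold). Only 42.4% of the reads of the UDP-glycosyltransferase were unique to it, so its value may include reads of close copies.

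Among the 12 clearest genes lower in *ram1*, a gene for DNA damage-binding protein 1 (DDB1, Peaxi162Scf00296g01317.1), an adaptor of ubiquitin ligases, had 1, 0 and 1 reads in *ram1*, against 1538, 1390 and 1396 reads in the wild type. The wild type level was 2265 times that of *ram1*, with a counting interval of 627 to 18713. A histone H2B.1 gene (Peaxi162Scf01201g00008.1) had 1.48, 2.32 and 2.16 CPM in *ram1* and 150, 155 and 158 CPM in the wild type. It was low in each *ram1* plant and almost constant in the wild type (log2 fold change -6.26 ± 0.18 SE, adjusted p = 5.98e-09). Glutathione S-transferase TAU 18 (Peaxi162Scf00209g00844.1), a detoxifying enzyme, had 11.5, 12.2 and 12.7 CPM in *ram1*, against 181, 218 and 216 CPM in the wild type. A DHHC-type zinc finger protein (Peaxi162Scf00420g00738.1), of the enzymes that attach palmitate to proteins, lies on the same scaffold as *RAM1*. It had 13.2, 14.9 and 14.7 CPM in *ram1* and 107, 109 and 101 CPM in the wild type. The groups were far apart in each of these genes.

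A 3-oxoacyl-[acyl-carrier-protein] synthase 3 gene (Peaxi162Scf00133g00527.1), for the enzyme that starts fatty acid synthesis in plastids, had 0, 1 and 0 reads in *ram1* and 1234, 920 and 1179 reads in the wild type. The others were an NAD(P)-linked oxidoreductase (Peaxi162Scf00286g00533.1, 40.5-fold higher in the wild type), a nodulin MtN21/EamA-like transporter (Peaxi162Scf00601g00035.1, 60.7-fold), the plastid ribosomal protein L13 (Peaxi162Scf00047g00333.1, 69.4-fold), epoxide hydrolase 2 (Peaxi162Scf01021g00119.1, 306-fold), CONSTANS-like 2 (Peaxi162Scf00020g01929.1, 51.3-fold), ribosomal protein L37a (Peaxi162Scf00103g01212.1, 2 reads in *ram1* against 2357 in the wild type) and a DUF584 protein (Peaxi162Scf00331g00061.1, 2 against 3306 reads).

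**Figure D2:**
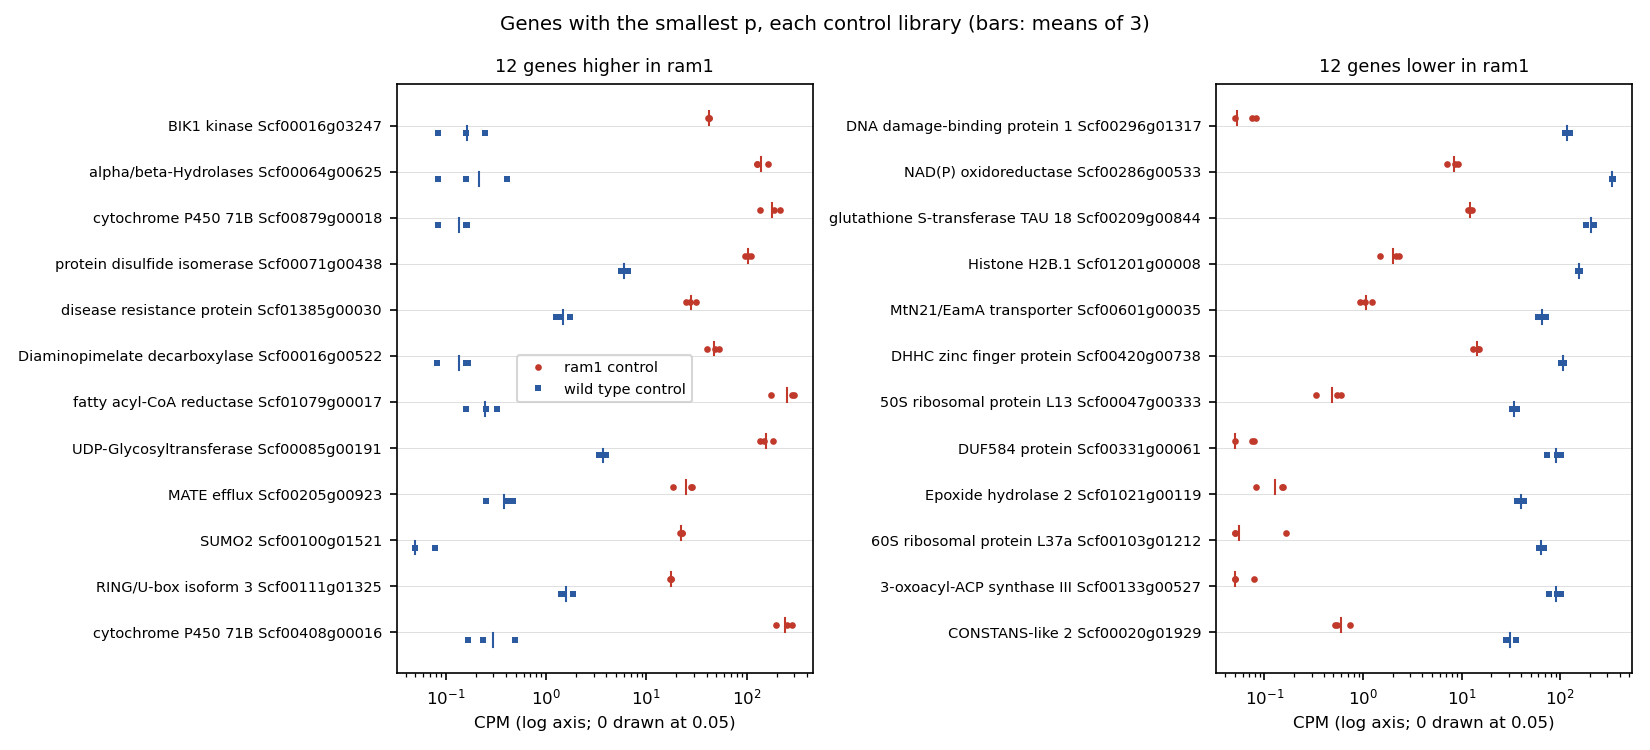
Level in each control library (horizontal axis, CPM, log axis, with 0 drawn at 0.05) of the 12 genes higher in *ram1* (left) and the 12 genes lower in *ram1* (right) with the smallest p, with *ram1* circles above wild type squares and the mean of 3 as a bar. No gene overlaps between the lines, as the rule for choosing them required, and the BIK1 kinase sits at 41.5 to 42.5 CPM in *ram1* against 0.0843 to 0.245 CPM in the wild type.

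Large differences also concerned genes that make up a sizeable share of the reads, and the following were chosen after their values were seen. A gene for an S-adenosyl-L-methionine-dependent methyltransferase (Peaxi162Scf01127g00029.1) had 1.98, 2.79 and 2.68 CPM in *ram1*, against 1721, 7339 and 4615 CPM in the wild type. The wild type plants varied among themselves, yet the lowest of them stood far above *ram1* (log2 fold change -10.83 ± 0.75 SE, adjusted p = 1.64e-06), while only 35.6% of the reads of this gene were unique to it. A 2-oxoglutarate-dependent oxygenase (Peaxi162Scf00034g01012.1), whose reads were all unique, had 73.1, 69.9 and 23.6 CPM in *ram1* and 2264, 3324 and 2669 CPM in the wild type. GTPase Obg (Peaxi162Scf00066g00614.1) had 484, 195 and 306 CPM in *ram1*, against 1539, 1680 and 1379 CPM in the wild type. All of these were lower in *ram1* with no overlap.

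In strigolactone synthesis, only the first of the tested steps was called. The carotenoid isomerase *D27* had 28.5, 24.9 and 17.9 CPM in *ram1* and 45.1, 50.3 and 38.6 CPM in the wild type, a log2 fold change of -0.91 ± 0.16 SE (adjusted p = 0.0013) with no overlap. The cleavage enzymes that follow it varied from plant to plant. *CCD7* had 98.2, 74.1 and 27.4 CPM in *ram1*, against 84, 64.3 and 65.3 CPM in the wild type (adjusted p = 0.850). *CCD8* had 167, 119 and 73.2 CPM in *ram1*, against 194, 123 and 90.4 CPM in the wild type (adjusted p = 0.684). Both overlapped between the lines, and in *ram1* both were lowest in replicate 3. The cytochrome P450 *MAX1* had too few reads for a test, and the receptor components *MAX2-A* and *MAX2-B* had log2 fold changes of -0.09 and 0.26 that did not pass. Without wild type control replicate 3, *MAX2-B* passed as higher (adjusted p = 0.0386).

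Of the 8 common symbiosis genes, 3 were lower and 1 was higher in *ram1* (50%, against 37.2% over all genes). *CYCLOPS*, the transcriptional activator phosphorylated by the calcium sensor kinase *CCaMK*, had 47.3, 25.2 and 28.9 CPM in *ram1*, against 99.3, 80.0 and 66.7 CPM in the wild type. All *ram1* plants were below all wild type plants (log2 fold change -1.28 ± 0.22 SE, adjusted p = 9.96e-04). The receptor kinase *SYMRK* had 238, 209 and 178 CPM in *ram1* and 357, 313 and 303 CPM in the wild type (log2 fold change -0.64 ± 0.13 SE, adjusted p = 0.0024). *CASTOR*, one of the paired ion channels of the nuclear envelope, had 39.2, 40.4 and 45.5 CPM in *ram1* and 54.7, 60.0 and 52.1 CPM in the wild type (log2 fold change -0.41, adjusted p = 0.0041). These shifts were modest beside those of the clearest genes. The nucleoporin *NENA* went the other way, with 23.0, 23.2 and 21.2 CPM in *ram1* and 15.7, 15.8 and 16.8 CPM in the wild type (log2 fold change 0.48, adjusted p = 0.0036). The second channel *POLLUX*, the nucleoporins *NUP85* and *NUP133* and *CCaMK* had log2 fold changes of -0.15, -0.07, -0.11 and -0.18 and did not pass.

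Genes of infection and of the arbuscule were read at low levels, and some were lower still in *ram1*. *EXO70i*, a subunit of the exocyst that directs secretion to the arbuscule, had 6, 3 and 2 reads in *ram1*, against 36, 54 and 23 reads in the wild type (log2 fold change -3.39 ± 0.50 SE, adjusted p = 3.79e-04). *VAPYRIN*, an ankyrin protein needed for infection, had 20.2, 16.1 and 18.9 CPM in *ram1* and 37.6, 19.0 and 22.5 CPM in the wild type, a difference that did not pass (adjusted p = 0.0898), though it did without wild type control replicate 2 (adjusted p = 0.0269). *EXO84* had a log2 fold change of -0.44 and an adjusted p of 0.572. The microtubule protein *MAP70-5* was higher in *ram1*, with 1.40, 1.86 and 1.42 CPM against 1.06, 0.337 and 0.554 CPM in the wild type (adjusted p = 0.0438). It passed by a narrow margin, and the call was lost without *ram1* control replicate 1, 2 or 3 (adjusted p = 0.0656, 0.124 and 0.0686) and without wild type control replicate 2 or 3 (0.142 and 0.121), and without any one of 3 mycorrhizal libraries, which bear on it through the spread (0.0518 to 0.0556).

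Transcripts of arbuscule genes were not wholly absent from the control roots of either line. *STR2A*, a half-size ABC transporter of the arbuscule membrane, had 4, 9 and 9 reads in *ram1* and 271, 142 and 59 reads in the wild type. It was lower in every *ram1* plant (log2 fold change -4.48 ± 0.67 SE, adjusted p = 3.78e-04), and its mean was 22.5-fold higher in the wild type. The arbuscular phosphate transporter *PT4* had 58, 27 and 85 reads in *ram1*, against 320, 103 and 62 reads in the wild type. Its groups overlapped and it did not pass (log2 fold change -1.59 ± 0.60 SE, adjusted p = 0.0600), while without wild type control replicate 3 it passed (adjusted p = 0.0215). *AMT2*, *STR* and *STR2B* had too few reads for a test, and *RAM2* had none. The 6 genes together had 5.85, 2.86 and 7.15 CPM in *ram1*, against 48.8, 21.2 and 10.0 CPM in the wild type. For comparison, in mycorrhizal roots *STR2A* averaged 4.71 ± 3.19 CPM in *ram1* and 155 ± 6.07 CPM in the wild type (SD, n = 3 each), and *PT4* averaged 6.94 ± 3.55 CPM in *ram1* and 614 ± 54.6 CPM in the wild type. Whether any fungus reached the control plants of either line was not tested.

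**Figure D3:**
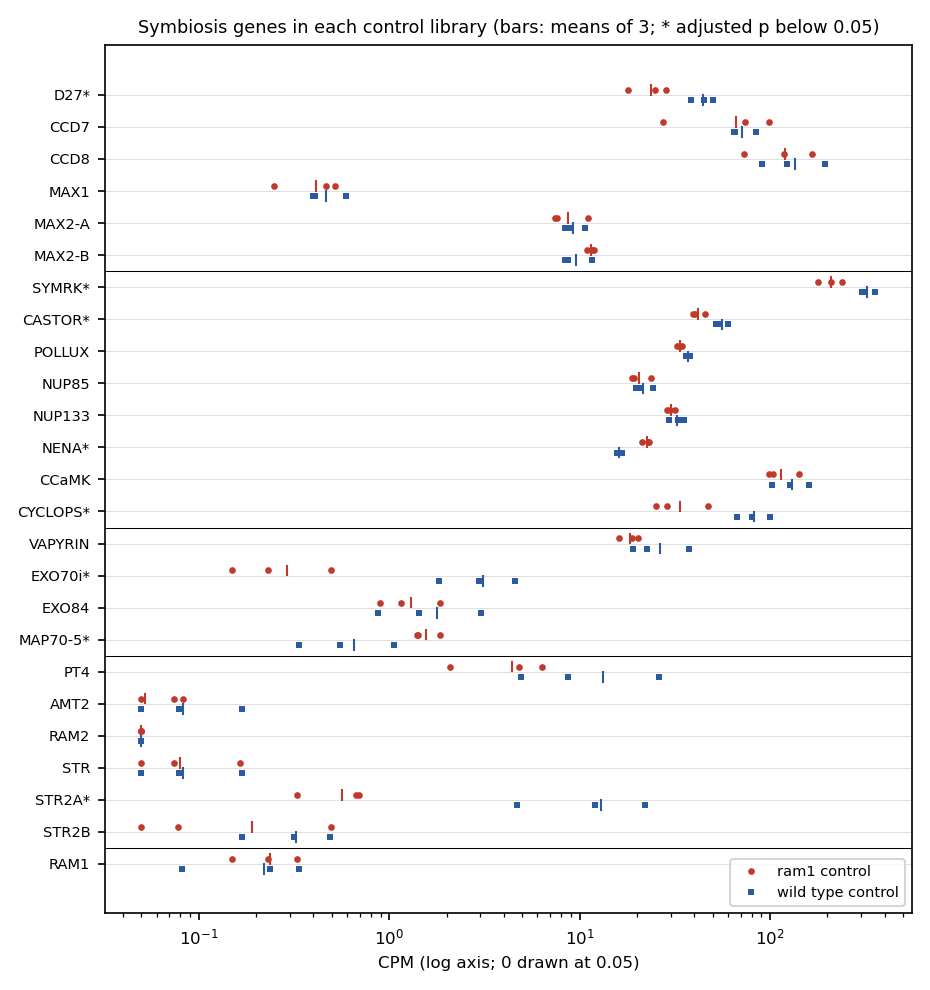
Level in each control library (horizontal axis, CPM, log axis, with 0 drawn at 0.05) of the genes of strigolactone synthesis and perception, common symbiosis signalling, infection, arbuscule function and *RAM1*, from top to bottom, with *ram1* circles above wild type squares, the mean of 3 as a bar and an asterisk for an adjusted p below 0.05. *STR2A* shows the widest gap, with 0.329 to 0.697 CPM in *ram1* against 4.67 to 22.2 CPM in the wild type, and *RAM1* itself overlaps.

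Phosphate genes differed in summed level and in single genes. Of 63 tested genes of phosphate transport and starvation, 14 were higher and 17 lower in *ram1* (49.2% called), with a median log2 fold change of -0.15 against 0.02 over all genes tested. Their summed level was 6968, 6250 and 7645 CPM in *ram1*, against 11260, 10275 and 9747 CPM in the wild type. Most of that gap came from phosphate transporter 1, a name the annotation gives to 13 gene models of high-affinity phosphate carriers, *PT4* among them. They summed to 1763, 1222 and 1775 CPM in *ram1* and 4360, 3837 and 3819 CPM in the wild type, and with unique reads only to 1127, 831 and 1258 CPM in *ram1* and 2242, 2105 and 1777 CPM in the wild type. Both counts left the lines apart.

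The member Peaxi162Scf00006g00443.1 had 11.1, 7.20 and 6.33 CPM in *ram1*, against 890, 784 and 920 CPM in the wild type (log2 fold change -6.72 ± 0.39 SE, adjusted p = 4.81e-07). Its neighbour Peaxi162Scf00006g00445.1, chosen after its values were seen, had 5.60, 1.70 and 3.50 CPM in *ram1* and 436, 410 and 457 CPM in the wild type. Only 29.6% and 24.8% of their reads were unique, so reads may have been split between close copies. Purple acid phosphatase 15 (Peaxi162Scf00106g01215.1), of the enzymes that free phosphate from organic compounds, was read uniquely and had 0.0823, 0.155 and 0.0745 CPM in *ram1*, against 113, 104 and 95.3 CPM in the wild type. The 14 genes of the list higher in *ram1* include a model described as SPX domain gene 1 (Peaxi162Scf00062g00136.1, chosen after its values were seen). It averaged 13.1 CPM in *ram1* and 1.58 CPM in the wild type (log2 fold change 3.05, adjusted p = 1.12e-05). Other models of that description also passed as higher, with log2 fold changes of 1.36, 1.96 and 2.55. The most read model of that description averaged 758 CPM in *ram1* and 783 CPM in the wild type and did not pass (adjusted p = 0.883).

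Nitrate genes showed differences within *ram1* as well as between the lines. Of 89 tested nitrate and peptide transporters, 19 were higher and 16 lower in *ram1* (39.3%), close to the share over all genes. A nitrate and peptide transporter of family 7.3 (Peaxi162Scf00013g00036.1) had 117, 143 and 44.1 CPM in *ram1*, against 1.23, 1.26 and 0.870 CPM in the wild type, 89.9-fold higher. Some genes of nitrate uptake and assimilation, chosen after their values were seen, split the *ram1* replicates instead. Nitrate reductase (Peaxi162Scf00476g00046.1), the entry enzyme of nitrate assimilation, had 646, 613 and 102 CPM in *ram1* and 750, 985 and 675 CPM in the wild type (adjusted p = 0.302). A transporter gene of family 6.3 (Peaxi162Scf00002g00108.1) had 706, 678 and 117 CPM in *ram1* and 148, 245 and 362 CPM in the wild type (adjusted p = 0.410). In both, *ram1* control replicate 3 was the low one. All *ram1* plants were below the wild type for nitrate reductase, while the lines overlapped for the transporter. Another gene of family 6.3 (Peaxi162Scf00102g00119.1), with the largest difference in level of the list, had 234, 196 and 27.4 CPM in *ram1* and 581, 442 and 684 CPM in the wild type (adjusted p = 0.0997). It went the other way, without overlap, and passed with limma-voom (adjusted p = 0.0369) and without *ram1* mycorrhizal replicate 1 (0.0243).

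A pair of oxylipin genes, also chosen after their values were seen, was highest in that same library. Allene oxide synthase (Peaxi162Scf00016g01228.1), at the start of jasmonate synthesis, had 15.3, 75.5 and 483 CPM in *ram1*, against 52.7, 5.65 and 15.7 CPM in the wild type, and did not pass (adjusted p = 0.0618). It passed without *ram1* control replicate 1 (adjusted p = 0.0196) or without wild type control replicate 1 (0.0379). An alpha dioxygenase (Peaxi162Scf00129g00943.1), which oxidises fatty acids, had 3.71, 57.8 and 249 CPM in *ram1* and 6.13, 0 and 0 CPM in the wild type (adjusted p = 0.0139, but 0.0526 with the 6 control libraries alone and 0.246 with limma-voom). Neither gene held a common level within *ram1*, and both overlapped between the lines. Genes that were silent in one replicate, with at most 1 read, and read at least 50 times in another were rare, with 5 in *ram1* and 2 in the wild type. One of them, a receptor-like kinase 1 gene (Peaxi162Scf00744g00337.1), had 591, 1 and 978 reads in *ram1* and 1049, 1532 and 1360 in the wild type.

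Among pathogenesis-related proteins and chitinases, more genes were higher than lower in *ram1*. Of 63 tested pathogenesis-related proteins and chitinases, 22 were higher, all at least 2-fold, and 7 lower in *ram1* (46.0%), with a median log2 fold change of 0.84. Their sum was 13316, 12888 and 18272 CPM in *ram1*, against 11133, 8276 and 11146 CPM in the wild type. An MLP-like protein 28 gene (Peaxi162Scf00198g00148.1, chosen after its values were seen), of the Bet v 1 fold shared with PR10 proteins, had 1708, 1027 and 979 CPM in *ram1* and 307, 202 and 339 CPM in the wild type. A thaumatin-like gene (Peaxi162Scf00714g00017.1, chosen likewise) had 518, 834 and 1192 CPM in *ram1*, against 201, 102 and 200 CPM in the wild type. Both were higher in all *ram1* plants (adjusted p = 3.73e-04 and 5.24e-04). A chitinase (Peaxi162Scf00078g01219.1, chosen likewise) had 328, 441 and 2066 CPM in *ram1* and 253, 124 and 143 CPM in the wild type, again with the highest value in replicate 3. Not all members shared the direction, and a second MLP-like protein 28 gene (Peaxi162Scf00005g02811.1) had 8.23, 6.27 and 5.81 CPM in *ram1* against 105, 262 and 147 CPM in the wild type.

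Immune receptors differed in both directions. Of 155 tested NB-ARC genes, which encode intracellular sensors of pathogen proteins, 42 were higher and 50 lower in *ram1* (59.4%), with a median of -0.09, while their sum was 4023, 3908 and 3872 CPM in *ram1* and 3599, 3720 and 4247 CPM in the wild type. A CC-NBS-LRR gene (Peaxi162Scf00003g00474.1) had 0.494, 0.387 and 0.670 CPM in *ram1*, against 12.9, 15.8 and 13.8 CPM in the wild type. It was low in all *ram1* plants, while the totals of the list overlapped between the lines. S-locus and lectin receptor kinases held 12 higher and 10 lower genes among 67 (32.8%).

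Enzyme families of specialised metabolism also changed in both directions. Of 169 UDP-glycosyltransferases, 56 were higher and 49 lower (62.1%), of 148 2-oxoglutarate oxygenases 36 and 46 (55.4%), of 57 glutathione S-transferases 16 and 15 (54.4%), and of 302 cytochrome P450 genes 81 and 58 (46.0%). Their medians of 0.08, -0.11, 0.18 and 0.26 stayed near 0. The glucosyltransferase Peaxi162Scf00244g00086.1 had 73.5, 66.4 and 120 CPM in *ram1* and 0.0818, 0 and 0 CPM in the wild type. The oxygenases together had 7425, 7110 and 6059 CPM in *ram1*, against 10505, 13591 and 11876 CPM in the wild type, and the single gene Peaxi162Scf00034g01012.1 described above accounts for 2264 to 3324 CPM of the wild type values. Terpene synthases held 16 higher and 6 lower of 49 (44.9%, median 0.28), and genes of phenylpropanoid and lignin synthesis 25 higher and 14 lower of 82 (47.6%, median 0.27). Laccase 17 (Peaxi162Scf00774g00314.1), which couples lignin units in the wall, had 28.1, 54.3 and 34.6 CPM in *ram1* and 0, 0.0843 and 0 CPM in the wild type. In flavonoid synthesis, 6 of 22 genes were higher and 5 lower (50%, against 37.2% over all genes). Chalcone synthase B (Peaxi162Scf00164g00313.1, chosen after its values were seen), the entry enzyme of the pathway, had 211, 183 and 159 CPM in *ram1*, against 55.0, 17.7 and 53.3 CPM in the wild type (adjusted p = 0.0055). Of 134 genes of suberin and fatty acid elongation, 33 were higher and 25 lower (43.3%).

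Histone genes were mostly lower in *ram1*. Of 52 tested histone genes, 29 were lower and 5 higher in *ram1* (65.4%), with a median log2 fold change of -0.53. The sum over all histone genes was 3253, 2909 and 3952 CPM in *ram1* and 4460, 4521 and 5372 CPM in the wild type, with no overlap. Histone H2B, one of the core proteins of the nucleosome, was lower in 8 of 10 models, and its sum was 596, 558 and 617 CPM in *ram1*, against 888, 975 and 1213 CPM in the wild type. Histone H2A was lower in 6 and higher in 1 of 12 models. The linker histone H1 did not follow as evenly, with a sum of 566, 395 and 1118 CPM in *ram1* and 924, 795 and 912 CPM in the wild type, the highest value being that of *ram1* control replicate 3. Genes of the cell cycle and of DNA replication, which are expressed together with core histones in dividing cells, held 20 higher and 17 lower of 146 (25.3%, against 37.2% over all genes), and their sum was 2805, 3183 and 3254 CPM in *ram1* and 3015, 3061 and 3091 CPM in the wild type.

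Of 207 tested models of cytosolic ribosomal proteins, 36 were higher and 26 lower in *ram1* (30.0%, against 37.2% over all genes), with a median of -0.01, and without wild type control replicate 2 the number higher was 23. Among the 63 ribosomal proteins with at least 2 models, 42 had a called model, and the log2 ratio of the summed levels lay between -0.51 and 0.44. In 10 of these proteins some models were higher and others lower. Ribosomal protein L23a is an example. Its model Peaxi162Scf00604g00036.1 had 47.8, 57.7 and 39.3 CPM in *ram1* and no read in the wild type, which is at least 589-fold higher, while 3 other models were lower. All 4 models together had 310, 330 and 274 CPM in *ram1*, against 360, 383 and 430 CPM in the wild type, a log2 ratio of -0.36. Of 458 pentatricopeptide repeat proteins, which process organelle transcripts, 78 were higher and 37 lower (25.1%), with a median of 0.13.

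Hormone genes differed in single members. Of 124 tested auxin genes, 30 were lower and 16 higher in *ram1* (37.1%, against 37.2% over all genes), with a median of -0.02, and the sum was 4815, 4961 and 4716 CPM in *ram1* and 5956, 6378 and 6226 CPM in the wild type. A Dormancy/auxin associated gene (Peaxi162Scf01100g00009.1, chosen after its values were seen) had 35.2, 31.9 and 112 CPM in *ram1*, against 614, 784 and 1026 CPM in the wild type. It made up much of the gap, and without it the list averaged 4771 ± 163 CPM in *ram1* and 5379 ± 200 CPM in the wild type (SD, n = 3 each). The auxin-conjugating enzyme GH3.6 (Peaxi162Scf00620g00012.1) was opposite, with 26.9, 23.2 and 23.9 CPM in *ram1* and 0.409, 0.675 and 0.158 CPM in the wild type (log2 fold change 5.88 ± 0.26 SE, adjusted p = 8.78e-08). Gibberellin and abscisic acid genes held 10 higher and 11 lower of 40 (52.5%), cytokinin genes 10 and 8 of 38 (47.4%), and ethylene and jasmonate genes 15 and 8 of 78 (29.5%). Cytokinin dehydrogenase 5 (Peaxi162Scf00189g00922.1), which degrades cytokinin, had 0, 0.0774 and 0 CPM in *ram1* and 46.4, 31.8 and 74.9 CPM in the wild type. 12-oxophytodienoate reductase 2 (Peaxi162Scf00970g00114.1), of a family with roles in jasmonate synthesis, had 0.741, 0.387 and 0.596 CPM in *ram1*, against 252, 75.6 and 88.0 CPM in the wild type. The ethylene receptor 2 gene (Peaxi162Scf00024g00157.1) had 18.5, 22.8 and 20.3 CPM in *ram1* and 1.88, 2.11 and 2.77 CPM in the wild type.

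Beside the 37.2% of all genes called stood 37.4% of 99 MYB domain proteins, 35.5% of 121 bHLH and 32.0% of 150 AP2/ERF genes. Of 52 tested GRAS genes, the family of *RAM1*, 10 were higher and 7 lower (32.7%). The GRAS gene Peaxi162Scf00305g00129.1 had 44.4, 38.5 and 37.7 CPM in *ram1*, against 109, 120 and 118 CPM in the wild type (log2 fold change -1.52 ± 0.12 SE, adjusted p = 4.45e-06). Another, Peaxi162Scf00691g00048.1, had 34, 64 and 75 reads in *ram1* and 1, 1 and 1 in the wild type, a ratio of 55.0 with a counting interval of 18.5 to 269. A DELLA gene described as RGA (Peaxi162Scf00939g00210.1), a repressor of gibberellin responses, had 1, 2 and 0 reads in *ram1* and 51, 34 and 69 in the wild type. MADS-box genes held 8 higher and 11 lower of 35 (54.3%), and without *ram1* control replicate 3 or wild type control replicate 2 the number higher was 5. NAC genes held 15 higher and 9 lower of 75 (32.0%). WRKY genes held 11 higher and 8 lower of 70 (27.1%), with only 3 lower without *ram1* control replicate 2 or wild type control replicate 3 and 5 without *ram1* or wild type control replicate 1. WRKY11 (Peaxi162Scf00045g01628.1) had 11.6, 19.0 and 14.5 CPM in *ram1* and 2.04, 2.28 and 3.01 CPM in the wild type, all higher in *ram1*.

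Of 42 tested genes of the list of aquaporins, the water channels of the membranes, 4 were higher and 8 lower (28.6%, against 37.2% over all genes). Without wild type control replicate 2 the number higher was 2. The list also took in models described as Zinc phosphodiesterase ELAC protein 2, none of them called. The plasma membrane intrinsic protein 1 gene Peaxi162Scf00951g00329.1 had 32.5, 27.9 and 14.2 CPM in *ram1*, against 644, 794 and 1366 CPM in the wild type. A second, plasma membrane intrinsic protein 2A (Peaxi162Scf00413g00118.1), had 143, 116 and 76.0 CPM in *ram1* and 498, 510 and 779 CPM in the wild type. In both, the lowest value was that of *ram1* control replicate 3 and the highest that of wild type control replicate 3. The sum over the list was 24692, 22040 and 14848 CPM in *ram1* and 22198, 26461 and 34360 CPM in the wild type, so that the totals overlapped. The more read ELAC model averaged 1004 CPM in *ram1* and 991 CPM in the wild type within these sums. Genes of sugar transport and sucrose cleavage held 13 higher and 6 lower of 52 (36.5%, against 37.2% over all genes), and 8 higher without wild type control replicate 2. A neutral invertase (Peaxi162Scf00684g00002.1), which splits sucrose, was lower, with 83.0, 66.6 and 63.0 CPM in *ram1* against 269, 238 and 229 CPM in the wild type.

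Markers of root tissues were present in both lines. The endodermis list summed to 1723, 1272 and 1228 CPM in *ram1* and 1296, 1689 and 1684 CPM in the wild type, with 5 of 35 genes higher and 5 lower (28.6%, against 37.2% over all genes). Without wild type control replicate 3 the number higher was 3, and without *ram1* control replicate 2 the number lower was 3. The root hair and epidermis list summed to 578, 487 and 493 CPM in *ram1* and 450, 506 and 498 CPM in the wild type. Of its 21 tested genes, 4 were higher and 5 lower (42.9%), and 3 lower without *ram1* or wild type control replicate 2. Flower markers were scarce, with only 4 of 26 tested. The totals of the endodermis and root hair lists overlapped between the lines. The flower markers summed to 31.2 to 36.2 CPM in *ram1*, against at most 24.8 CPM in the wild type, with no overlap. That gap came from the developmental regulator ULTRAPETALA (Peaxi162Scf00007g02859.1), which averaged 21.5 CPM in *ram1* and 8.32 CPM in the wild type. Without this gene the log2 ratio of the mean sums was -0.22, so the other flower markers together were not higher in *ram1*. Of the 14 leaf markers that passed the filter, 7 were higher and 4 lower in *ram1* (78.6%, against 37.2% over all genes), at low levels. The leaf marker with the largest difference in level (Peaxi162Scf00102g00088.1, a chlorophyll a-b binding protein, chosen after its values were seen) averaged 17.9 CPM in *ram1* and 32.7 CPM in the wild type. Another had 3.13, 1.93 and 5.14 CPM in *ram1* against 0.164, 0 and 0 CPM in the wild type (Peaxi162Scf00603g00011.1, of the same family).

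**Figure D4:**
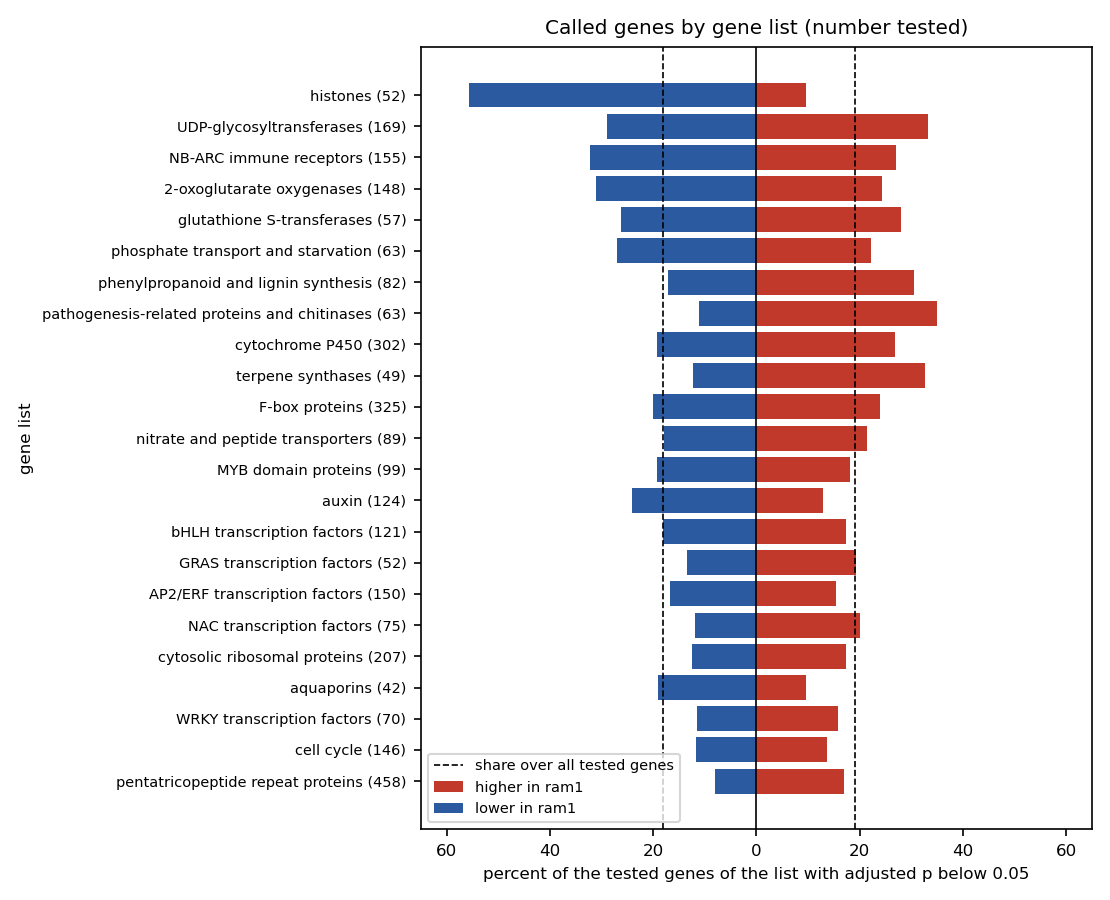
Share of the tested genes of each list (vertical axis, number tested in brackets) with an adjusted p below 0.05, drawn to the right for genes higher in *ram1* and to the left for genes lower in *ram1* (horizontal axis, percent), with dashed lines at the shares over all tested genes, 19.1% higher and 18.1% lower. Among the lists drawn, histones reach farthest to the left with 29 of 52 genes lower, and pathogenesis-related proteins and chitinases farthest to the right with 22 of 63 higher. Only some of the 55 lists are drawn, and leaf and green shoot markers, with 7 of 14 higher, are not among them.

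Some genes were read in one line alone. No read was found in the 3 *ram1* control libraries for 166 of the tested genes, of which 162 passed the test, and none in the 3 wild type control libraries for 216, of which 213 passed. These counts describe the rule that formed them and were not tested further. The mycorrhizal libraries, which took no part in it, repeated the pattern. Of the 166 genes, 163 (98.2%) had at most 3 reads in the 3 *ram1* mycorrhizal libraries together, and 131 (78.9%) reached a mean of 10 reads in wild type mycorrhizal roots. Of the 216 genes, 202 (93.5%) had at most 3 reads in wild type mycorrhizal roots and 185 (85.6%) reached a mean of 10 in *ram1* mycorrhizal roots. An NB-ARC gene (Peaxi162Scf00668g00444.1) had no read in *ram1* and 45.2, 45.7 and 43.2 CPM in the wild type, at least 573-fold lower in *ram1*. A CC-NBS-LRR gene (Peaxi162Scf00286g00529.1) had 23.2, 31.5 and 34.9 CPM in *ram1* and no read in the wild type, at least 368-fold higher. Lists differed in which line lacked reads, and no test was made of this. Among F-box proteins, 0 of 325 tested genes had no read in *ram1* and 9 had none in the wild type, and among UDP-glycosyltransferases 0 and 7 of 169. The counts were 3 and 3 of 302 for cytochrome P450 genes, 3 and 3 of 148 for 2-oxoglutarate oxygenases, 3 and 2 of 134 for suberin and fatty acid elongation, and 2 and 0 of 89 for nitrate and peptide transporters, beside 166 and 216 of all 22246 genes.

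The difference between the lines was largely the same in mycorrhizal roots. The 6 mycorrhizal libraries shared only the estimate of spread with the control comparison, and in them 11539 of the 22246 genes (51.9%) were called between *ram1* and the wild type. Of the 8272 genes called in control roots, 7481 (90.4%) had the same direction in mycorrhizal roots, 5926 (71.6%) were called in that direction and 255 (3.08%) were called in the opposite one. The share called again rose with the size of the difference, from 60.9% for genes called under 2-fold to 80.6% of the 4496 genes called at least 2-fold and 90.3% of the 1983 called at least 5-fold. Among the 13974 genes not called in control roots, 3895 (27.9%) were called in the direction of their control value and 1463 (10.5%) in the opposite one. Among the clearest genes, the BIK1 kinase had a log2 fold change of 7.92 in control and 7.22 in mycorrhizal roots, and histone H2B.1 had -6.26 in both.

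**Figure D5:**
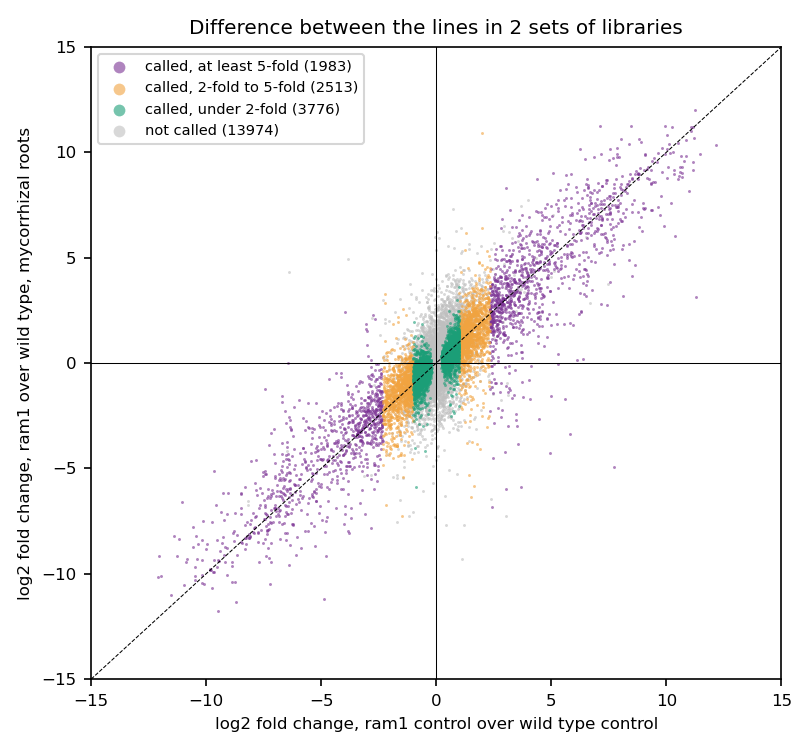
Log2 fold change of *ram1* over the wild type in mycorrhizal roots (vertical axis) against the same in control roots (horizontal axis) for 22246 genes, coloured by the size of the difference called in control roots, with the line of equal values dashed. Of the 1983 genes called at least 5-fold in control roots, 1923 lie in the quadrants of equal sign, and 33 were called in the opposite direction in mycorrhizal roots.

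Called genes were spread over the assembly. The gene names give a scaffold of the *P. axillaris* assembly and an order on it, without coordinates. On the 342 scaffolds with at least 20 tested genes, the share called ran from 4.35% on scaffold 224 to 84% on scaffold 124, where 19 of the 21 called genes were higher in *ram1*, with quartiles of 28.0% and 45.9%. A gene that followed a called gene was itself called in 3155 of 7729 cases (40.8%), and one that followed a gene not called in 4515 of 13037 (34.6%). When neighbours were both called, they had the same direction in 1704 cases (54.0%). Neighbouring genes are not independent, and no test was made of these shares.

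The scaffold of *RAM1*, number 420, was not unusual in its share of calls. It holds 125 gene models, of which 104 were tested and 35 were called (33.7%), 20 of them higher and 15 lower in *ram1*. Of the genes next to *RAM1*, an ENTH/VHS protein gene of vesicle transport (Peaxi162Scf00420g00644.1) had 14.0, 14.8 and 14.2 CPM in *ram1*, against 18.1, 20.2 and 20.5 CPM in the wild type, and passed (log2 fold change -0.45, adjusted p = 0.0059). YELLOW STRIPE like 6 (Peaxi162Scf00420g00646.1) and membrane-anchored ubiquitin-fold protein 2 (Peaxi162Scf00420g00654.1) had log2 fold changes of -0.12 and -0.03 and did not pass. A gene described as a regulator of nonsense transcripts (Peaxi162Scf00420g00652.1) was too little read to test. Farther away on the scaffold, DNA ligase 1 (Peaxi162Scf00420g00341.1), which seals breaks during replication, had 12.2, 12.5 and 9.68 CPM in *ram1* and 1.23, 1.94 and 1.42 CPM in the wild type. A Blue copper protein gene (Peaxi162Scf00420g00051.1) had 25.3, 28.7 and 25.9 CPM in *ram1* and 5.80, 4.05 and 3.80 CPM in the wild type, and an AP2/B3-like transcription factor gene (Peaxi162Scf00420g00827.1) had 0, 0 and 0.149 CPM in *ram1* against 1.64, 3.12 and 3.72 CPM in the wild type. All of these were clear of overlap.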

How the data were processed

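The authors trimmed paired reads, aligned them to the version 4 transcripts of *P. axillaris* in CLC Genomics Workbench 9 (length fraction 0.9, similarity 0.9, at most 10 hits), where both mates of a pair counted as 2 reads and a single mate as 1. The deposited tables give these counts as total and unique gene reads per gene model and library, without normalization, beside RPKM values that the authors computed from them and that are not printed here. Control status was taken from the sample titles, since the treatment field of every sample names the fungal inoculum. The authors' own fold changes and test results were not used. The total gene reads of 12 libraries were scaled with TMM and fitted in 1 quasi-likelihood model of the 4 groups with edgeR 4.0.16 in R 4.3.3, with the contrast *ram1* control minus wild type control and p values adjusted after Benjamini and Hochberg over all 22246 genes. The SE printed beside a log2 fold change is approximate: the size of the fold change divided by the square root of the F statistic of its test. Where a line had no read, its floor was 3 reads summed over the 3 libraries. Ratios against 1 to 3 reads carry a 95% interval, which covers counting error only and is exact only for independent reads. As both mates of a pair were counted, it is likely too narrow. The 24 genes of 4 groups of the study, the 12 clearest genes in each direction and up to 3 genes with the smallest p of each of 55 lists are named, besides those said to be chosen after their values were seen. Members and lists were chosen with earlier results of these data known. The alternatives were other scalings, filters, unique reads, robust dispersion, a replicate block, the 6 control libraries alone, DESeq2 1.42.0, limma-voom 3.58.1 and each library left out in turn, the mycorrhizal ones added after seeing the data. The model was tested on simulated data.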

Additional observations from a re-analysis of the deposited data

Results flagged for a closer look

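The genes named by the rules, scaffold 420 included, or chosen after their values were seen came to 238 tested genes. For 33 of them the difference between *ram1* and the wild type itself differed between control and mycorrhizal roots. This was tested as an interaction in edgeR with Benjamini-Hochberg adjustment over all genes. The share of all tested genes with such a difference is not given, so the number is not read as a result about these genes. The values given are the log2 fold change in control roots minus that in mycorrhizal roots.

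Symbiosis genes among them were *PT4* (4.91, adjusted p = 0.0067), *MAP70-5* (3.21, adjusted p = 0.0043), *MAX2-B* (-0.97, adjusted p = 0.016) and *CASTOR* (-0.69, adjusted p = 0.0084). *MAP70-5* was higher in *ram1* control roots (1.24) and lower in *ram1* mycorrhizal roots (-1.96), and *CASTOR* was lower in *ram1* control roots (-0.41) and higher in *ram1* mycorrhizal roots (0.28), both called each time.

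The GRAS gene Peaxi162Scf00691g00048.1 (7.29, adjusted p = 4.24e-06) averaged 4.45 ± 1.46 CPM in *ram1* and 0.0817 ± 0.0026 CPM in the wild type in control roots, and 11.4 ± 1.12 CPM in *ram1* and 37.0 ± 1.23 CPM in the wild type in mycorrhizal roots (SD, n = 3 each). An ammonium transporter 2 gene (Peaxi162Scf01286g00133.1, 4.49) turned in the same way, with log2 fold changes of 3.14 in control and -1.35 in mycorrhizal roots. The MLP-like protein 28 gene Peaxi162Scf00442g00313.1 (8.18) had no read in wild type control roots, so its fitted control fold change, and with it this value, depends on the prior count of the fit. It averaged 24.4 CPM in *ram1* and 2.77 CPM in the wild type in mycorrhizal roots. The DELLA gene RGA (Peaxi162Scf00939g00210.1, -3.67) and nitrate reductase (Peaxi162Scf00476g00046.1, 3.11) also differed, the first lower in *ram1* in both kinds of roots and the second called only in mycorrhizal roots (-3.94).

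Direction was kept, with a change in size, for the MATE efflux gene Peaxi162Scf00205g00923.1 (1.79), the MtN21/EamA-like gene Peaxi162Scf00601g00035.1 (-1.62), the DHHC gene Peaxi162Scf00420g00738.1 (-0.64), WRKY11 (Peaxi162Scf00045g01628.1, 1.67), the multidrug resistance-associated protein 14 gene Peaxi162Scf00074g01312.1 (-1.19), a UDP-glycosyltransferase (Peaxi162Scf00084g00121.1, -0.85), a lipid transfer protein (Peaxi162Scf00100g00081.1, 2.31), a sulfate transporter 1 gene (Peaxi162Scf00183g01414.1, 1.61), a MuDR transposon gene (Peaxi162Scf00014g00124.1, -0.95), an extensin family gene (Peaxi162Scf00450g00732.1, -0.71), a pectin methylesterase inhibitor (Peaxi162Scf00450g00859.1, 1.15), a neutral invertase (Peaxi162Scf00684g00002.1, -0.69), an oxygen-evolving protein (Peaxi162Scf00678g00046.1, -1.82) and an ethylene-dependent gravitropism-deficient gene (Peaxi162Scf00575g00211.1, -0.76). The direction turned, with both sides called, for a small heat shock protein (Peaxi162Scf00797g00012.1, 1.38), its neighbour the myb domain protein 40 gene (Peaxi162Scf00797g00013.1, 1.19) and an inter-alpha-trypsin inhibitor related gene (Peaxi162Scf00880g00321.1, 1.10), each higher in *ram1* in control roots.

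On scaffold 420, the genes were a pentatricopeptide repeat gene (Peaxi162Scf00420g00016.1, 0.62), a TPX2 family gene (Peaxi162Scf00420g00252.1, 1.11), DNA ligase 1 (Peaxi162Scf00420g00341.1, 1.49), Ankyrin-3 (Peaxi162Scf00420g00443.1, 2.59), a protein kinase (Peaxi162Scf00420g00445.1, 3.57), an unknown protein (Peaxi162Scf00420g00563.1, -2.40) and chloride channel B (Peaxi162Scf00420g00565.1, -3.59).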

How the results depend on the processing

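The number of called genes ranged from 6731 without wild type control replicate 2 to 8679 with DESeq2, against 8272. From 79.5% of the calls, without wild type control replicate 2, to 99.5%, with RLE size factors, were kept, and none was called in the opposite direction under any of the 22 alternatives. Leaving out 1 library gave at least 6731 calls, the 6 control libraries alone gave 7115, library totals only 8216, no filter 8500 and unique reads 8246. Between the control groups, same-numbered libraries had correlations of -0.14, 0.07 and -0.23 in their departures from the group means. Between *ram1* control and *ram1* mycorrhizal roots these were 0.37, -0.20 and 0.18. Whether same-numbered libraries shared more than a number was not tested. The replicate block gave 7941 calls. Of 219 called genes among those named, 207 kept their call in every alternative. The 12 that lost it in some include *MAP70-5* (limma-voom adjusted p = 0.140, replicate block 0.0621, 6 control libraries alone 0.0710), the alpha dioxygenase (limma-voom 0.246) and genes of scaffold 420. *PT4* passed with DESeq2 (adjusted p = 0.0185), as did allene oxide synthase (0.0250).

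Genes that did not pass changed sign when 1 library was left out, with log2 fold changes from -0.50 to 0.16 for *CCD8*, -0.49 to 0.27 for *CCD7*, -0.18 to 0.024 for *NUP85*, -0.30 to 0.021 for *MAX2-A*, -0.79 to 0.18 for *EXO84* and -0.070 to 0.067 for Peaxi162Scf00420g00654.1, which had 0.00027 with library totals only. The cause was not tested. Genes near 10 reads are limited by depth.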
